A study of Mus musculus with 18 samples.

Results

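The response of MC38-OVA tumours to guanabenz was compared between hosts with and without the alpha2A-adrenergic receptor gene Adra2a. For every gene the log2 effect of guanabenz in Adra2a-deficient (KO) hosts was subtracted from its log2 effect in wild-type (WT) hosts, as (WT-Guanabenz minus WT-Control) minus (KO-Guanabenz minus KO-Control). A positive difference of effects therefore means that the guanabenz effect lay further up in WT hosts. All 16125 genes that passed the filter on low counts were compared, of 21015 in the table, in 12 of the 18 libraries of the series, 3 per group. The 4 groups were bulk tumours from WT mice given guanabenz, WT control mice, ADRA2A-/- mice given guanabenz and ADRA2A-/- control mice. All tumours came from MC38-OVA cells, mouse colon carcinoma cells that carry ovalbumin as a model antigen, and the labels give an age of 10 weeks and tumour collection 7 days after treatment. Injections were intraperitoneal and daily, with PBS named as the vehicle, although the treatment entry of both control groups reads untreated. The entry of the 3 libraries titled KO-Guanabenz also reads untreated, which conflicts with their title. The title was followed, and if that entry were right the difference of effects would hold no guanabenz effect in KO hosts. Doses, the hour of collection, the animals behind the libraries, and which part of Adra2a was deleted are not given in the sources used here. P-values therefore reflect only how far these libraries differ from each other, and part of that spread may be technical.

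Guanabenz is an agonist of alpha2-adrenergic receptors, which couple to inhibitory G proteins and lower cyclic AMP in the cell. It is also known to act on the eIF2 phosphatase complex that contains the Ppp1r15a product, a target that does not need the receptor. Because the tumour cells were implanted, only the host's cells in the tumour, such as leukocytes, vessels and fibroblasts, and the rest of the host's body lacked the gene. Much of this text concerns the circadian clock, a feedback loop found in nearly every mouse tissue. The Arntl and Clock proteins bind E-box sequences and switch on the Per and Cry repressors, the Nr1d1 and Nr1d2 receptors and the output factors Dbp, Tef and Hlf. The Per and Cry proteins then shut off their own activators, and the Nr1d receptors repress Arntl through ROR response elements, so that Arntl and Per2 transcripts peak at opposite phases of the day.

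The disrupted gene followed the genotype labels. Adra2a had 0.0917, 0.139 and 0.171 counts per 1e6 library counts (CPM) in KO-Guanabenz and 0.106, 0.231 and 0.199 CPM in KO-Control, against 0.423, 0.426 and 0.448 CPM in WT-Guanabenz and 0.589, 0.401 and 0.286 CPM in WT-Control. All 6 KO libraries lay below all 6 WT libraries, with a KO minus WT log2 difference of -1.44 (standard error, SE, 0.25, adjusted p = 0.066 in edgeR's quasi-likelihood test over all genes). In that comparison 4 genes were called (0.0248%), and Adra2a was not among them. It checks the genotype and not the treatment. Its difference of guanabenz effects was 0.48 (SE 0.49). Of the other possible receptors, Adra2b had a difference of 0.56 (SE 0.50) and Nisch, which encodes an imidazoline-binding protein, -0.03 (SE 0.09). Adra2b was scarce, at 0.205 to 0.493 CPM, and Adra2c, with 0 to 4 counts per library, was not tested. Library totals ran from 54.68 to 491.1 in units of 1e6 counts, the highest in WT-Control 3. Transcripts of Y-linked genes were found in 2 of 3 WT-Guanabenz, 3 of 3 WT-Control, 2 of 3 KO-Guanabenz and 2 of 3 KO-Control libraries. The epithelial genes Epcam, Krt8 and Krt18 were scarce in these colon carcinoma tumours, with mean log2 CPM of 0.25, -2.15 and -3.31, while the leukocyte gene Ptprc was at 7.17; these 4 were chosen after values were seen. In bulk tumours fewer cells of a type and less RNA per cell cannot be told apart.

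The clock gene Per2 was the 1 gene, 0.0062% of those tested, whose guanabenz effect differed between genotypes at an adjusted p below 0.05. At an unadjusted p below 0.05 there were 920 genes, 5.71% of all, of which 504 (3.13%) had positive and 416 (2.58%) negative differences. Omission of WT-Guanabenz 1 gave 4 calls, Per2, Dbp, Per3 and Arntl, all of them clock genes. Omission of WT-Guanabenz 3 or of KO-Control 2 gave 2 calls, Per2 and Tef, and omission of WT-Control 2 gave Per2 and Nr1d2. DESeq2 called 13 genes on the same counts, among them the clock genes Per2, Tef, Dbp, Per3 and Arntl. From outside the clock it called, among others, Mastl, Ccl25, Esp8, Sh3gl3, Egfr, Slc15a3 and Dpyd. In the simulated copy of this comparison the test found 82 of 100 genes changed by a log2 size of 1 and 100 of 100 changed by 2. All of these changes were planted at a mean log2 CPM of at least 1. So many changed genes make the adjusted threshold easier to pass than where 1 gene was called. The shares found therefore do not give the power in the data, where Dbp at 2.13 was not called.

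Per2 encodes a repressor of the clock (gene 18627, chromosome 1, 91415977 to 91459351, GRCm38.p6). It had 10.2, 11.7 and 10.8 CPM in WT-Guanabenz, against 6.38, 4.68 and 3.82 CPM in WT-Control. In KO hosts it had 4.89, 5.73 and 5.09 CPM in KO-Guanabenz, against 8.38, 10.1 and 8.49 CPM in KO-Control. The groups overlapped in neither genotype, and the order was opposite: the guanabenz libraries were the high ones in WT hosts and the low ones in KO hosts. The log2 effect was 1.15 (SE 0.17, adjusted p = 0.050) in WT and -0.78 (SE 0.17, adjusted p = 0.080) in KO hosts, and their difference was 1.93 (SE 0.23, adjusted p = 0.0055). Means were 10.9 ± 0.772 CPM in WT-Guanabenz and 4.96 ± 1.30 CPM in WT-Control, and 5.24 ± 0.444 CPM in KO-Guanabenz and 8.99 ± 0.975 CPM in KO-Control (SD, n = 3 each). Between the control groups, every KO-Control value lay above every WT-Control value, a gap that was not tested on its own. The counts behind these values ran from 373 to 1848 per library.

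**Figure D1:**
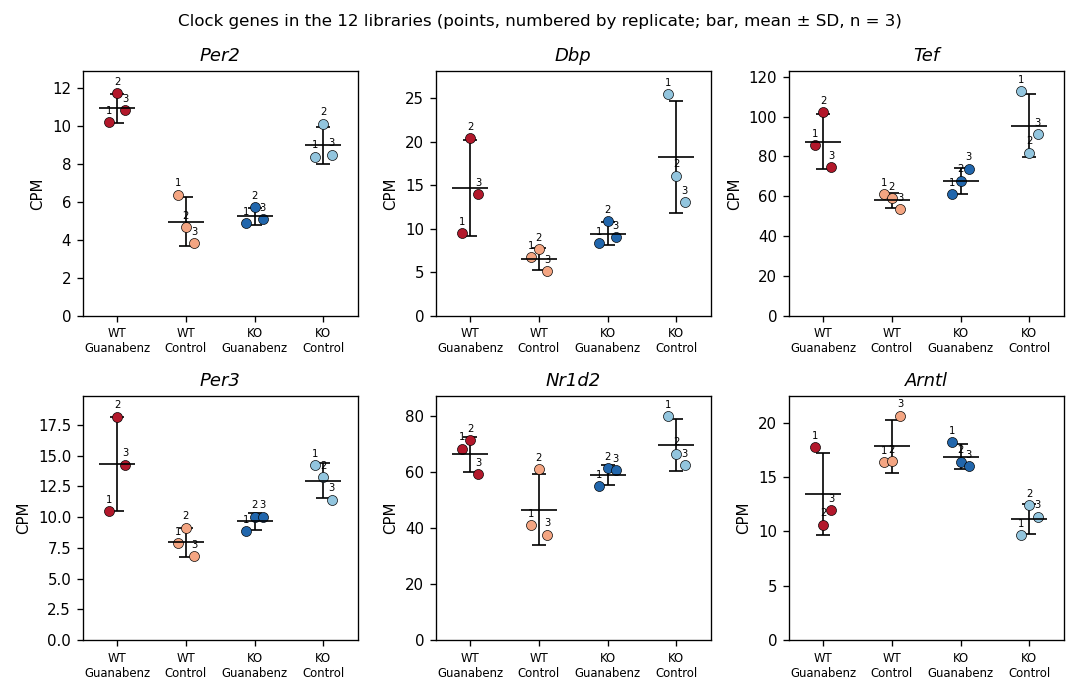
Counts per 1e6 library counts (CPM) of 6 clock genes in the 12 libraries, 1 panel per gene, with WT-Guanabenz, WT-Control, KO-Guanabenz and KO-Control from left to right, points numbered by replicate and bars for the mean ± SD (n = 3). Per2, Dbp, Tef and Per3 are high in WT-Guanabenz and KO-Control and low in WT-Control and KO-Guanabenz, Nr1d2 follows them with an overlap in WT hosts, and Arntl runs the other way.

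Dbp, Tef and Hlf encode related factors that bind D-box sequences and carry the clock's rhythm to target genes. Dbp had 9.49, 20.4 and 14.0 CPM in WT-Guanabenz against 6.72, 7.64 and 5.17 CPM in WT-Control, and 8.34, 10.9 and 9.03 CPM in KO-Guanabenz against 25.5, 16.1 and 13.1 CPM in KO-Control. Tef had 85.6, 102 and 74.8 CPM in WT-Guanabenz against 61.1, 59.2 and 53.7 CPM in WT-Control, and 61.1, 67.9 and 73.8 CPM in KO-Guanabenz against 113, 81.9 and 91.3 CPM in KO-Control. For both genes the groups did not overlap in either genotype, with guanabenz high in WT and low in KO hosts, and the spread was widest in WT-Guanabenz and KO-Control. The difference of effects was 2.13 (SE 0.39, adjusted p = 0.20) for Dbp, from 1.18 in WT and -0.95 in KO hosts. For Tef it was 1.09 (SE 0.17, adjusted p = 0.080), from 0.59 in WT and -0.50 in KO hosts. Hlf had a difference of 0.67 (SE 0.29), from effects of 0.63 in WT and -0.04 in KO hosts.

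Among the repressors, Per3 had 10.5, 18.2 and 14.3 CPM in WT-Guanabenz against 7.90, 9.15 and 6.82 CPM in WT-Control, and 8.88, 10.0 and 10.1 CPM in KO-Guanabenz against 14.2, 13.3 and 11.4 CPM in KO-Control. Its groups were also apart in each genotype, with a difference of effects of 1.28 (SE 0.23, adjusted p = 0.20). Ciart, a repressor of the Clock and Arntl pair, had 6.95, 5.39 and 5.98 CPM in WT-Guanabenz against 4.66, 4.87 and 5.34 CPM in WT-Control, and 4.19, 5.37 and 4.02 CPM in KO-Guanabenz against 6.34, 8.53 and 6.84 CPM in KO-Control. In WT hosts the Ciart groups were apart only narrowly, and the effect was 0.30 in WT and -0.68 in KO hosts, a difference of 0.98 (SE 0.28, adjusted p = 0.84). Cry2 and Cry1, partners of the Per proteins, had differences of 0.42 (SE 0.13) and 0.55 (SE 0.17), and Per1 had 0.67 (SE 0.30). The nuclear receptor Nr1d2 had 0.75 (SE 0.20, adjusted p = 0.84), with levels of 68.4, 71.5 and 59.3 CPM in WT-Guanabenz that reached into the 41.1, 61.1 and 37.8 CPM of WT-Control, and with 55.0, 61.5 and 60.8 CPM in KO-Guanabenz against 80.1, 66.6 and 62.5 CPM in KO-Control. Its relative Nr1d1 had 0.42 (SE 0.26), and the E-box repressors Bhlhe41 and Bhlhe40 had 0.21 (SE 0.25) and 0.10 (SE 0.34).

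The activator Arntl (BMAL1) ran against the repressors. It had 17.7, 10.6 and 11.9 CPM in WT-Guanabenz against 16.3, 16.5 and 20.7 CPM in WT-Control, and 18.2, 16.4 and 16.0 CPM in KO-Guanabenz against 9.68, 12.4 and 11.3 CPM in KO-Control. WT-Guanabenz 1 lay inside the WT-Control range while the other 2 were below it, and the KO groups did not overlap. The log2 effect was -0.42 in WT and 0.60 in KO hosts, a difference of -1.01 (SE 0.22, adjusted p = 0.53). Nfil3, a D-box repressor that is itself under Nr1d control, had a difference of -0.50 (SE 0.30), while the Arntl partners Clock and Npas2 had -0.06 (SE 0.13) and -0.13 (SE 0.70). Rora, an activator of Arntl, had 0.14 (SE 0.28).

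Over the 18 clock genes, all of which were tested, 14 differences were positive and 4 negative, against 52.3% positive over all genes. The median was 0.48, against 0.01 over all tested genes, and ran from 0.40 to 0.56 with a library left out. The 4 negative ones were Arntl, Clock, Npas2 and Nfil3. The median effect was 0.25 in WT and -0.13 in KO hosts, against 0.01 and -0.01 over all genes. At an unadjusted p below 0.05 there were 11 clock genes, 10 higher and 1 lower, against 5.71% of all genes, 3.13% higher and 2.58% lower. Only Per2 passed over all genes. In 6 of the 18, Per2, Per3, Dbp, Tef, Cry2 and Ciart, the guanabenz libraries lay wholly above control in WT and wholly below control in KO hosts, which held for 34 genes in all (0.211% of those tested). The opposite pattern, below control in WT and above it in KO hosts, held for 29 genes (0.18%) and for 0 clock genes. Over all genes, the groups were apart in 14.6% within WT hosts, in 19.6% within KO hosts, and in the same direction in both in 3.31%. This list was chosen with earlier results of these data known, and its members share a feedback loop, so they are not independent of each other.

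**Figure D2:**
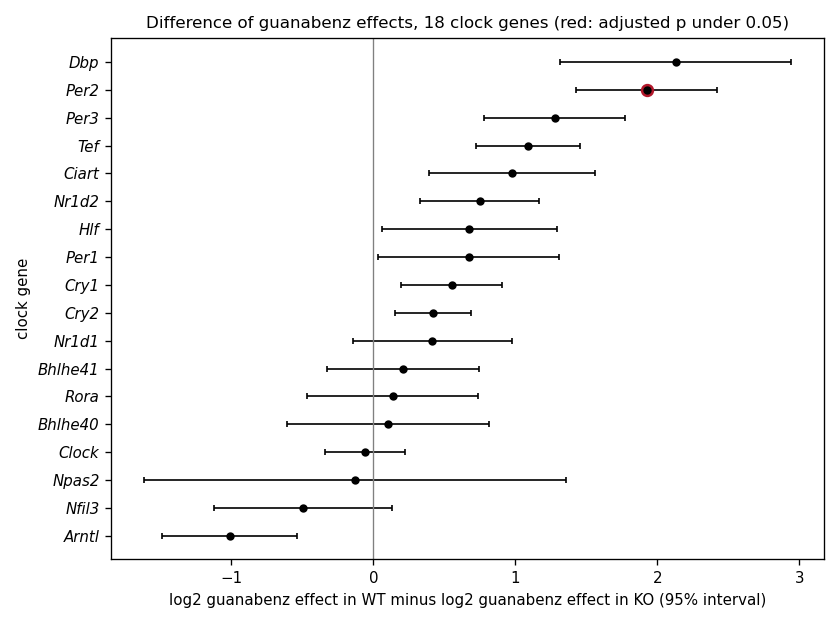
Log2 guanabenz effect in WT minus log2 guanabenz effect in KO hosts for the 18 clock genes, with points for the estimate and bars for its 95% interval from the edgeR fit, and a larger red point where the adjusted p was below 0.05. Dbp and Per2 lie furthest right at 2.13 and 1.93, Arntl furthest left at -1.01, and Per2 alone is red.

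The ratio of Per2 to Arntl within a library puts the opposed arms of the loop into 1 value. Its log2 was -0.80, 0.15 and -0.14 in WT-Guanabenz, against -1.35, -1.81 and -2.43 in WT-Control. In KO hosts it was -1.89, -1.51 and -1.65 in KO-Guanabenz, against -0.21, -0.29 and -0.42 in KO-Control. The mean was -0.26 ± 0.48 in WT-Guanabenz and -1.87 ± 0.54 in WT-Control, and -1.69 ± 0.19 in KO-Guanabenz and -0.31 ± 0.11 in KO-Control (SD, n = 3 each). WT-Guanabenz and KO-Control thus had a high ratio and WT-Control and KO-Guanabenz a low one, with no overlap within a genotype. The labels give no hour of collection, so a difference in hour between groups and an effect of guanabenz or of genotype cannot be told apart for these genes.

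The promoters of the clock genes are shown for the sequence elements through which the loop works, since members of its opposed arms had differences of opposite sign. RefSeq promoters (250 bases before to 50 after the start, GRCm38.p6) were found for 16 of the 18 genes (not Per2 and Bhlhe40), with 21 starts in all. The E-box CACGTG was present, on either strand, in 6 of the 21 clock promoters, against 7.15% of all 32851 promoters of 300 bases. The D-box TTANGTAA was present in 1 of 21 against 2.32%, the core of the ROR element, TAGGTCA or TGGGTCA, in 2 of 21 against 6.45%, and the cyclic AMP element TGACGTCA in 1 of 21 against 1.79%. None of these elements was found for Dbp, Nr1d1, Nr1d2, Cry2, Clock, Npas2 and Rora, or at the first Arntl and the second Per1 start. The promoter of the first Tef start (chr15:81802423-81802722, plus strand) holds 1 E-box, as does that of the second Tef start, which is not printed. That of Ciart (chr3:95882179-95882478, minus strand) holds 3 E-boxes, and that of Per3 (chr4:151044616-151044915, minus strand) holds 2 D-boxes. That of the second Arntl start (chr7:113207261-113207560, plus strand) holds a ROR core. Capitals mark these matches, which are descriptions of letters and not shown binding sites.
Tef: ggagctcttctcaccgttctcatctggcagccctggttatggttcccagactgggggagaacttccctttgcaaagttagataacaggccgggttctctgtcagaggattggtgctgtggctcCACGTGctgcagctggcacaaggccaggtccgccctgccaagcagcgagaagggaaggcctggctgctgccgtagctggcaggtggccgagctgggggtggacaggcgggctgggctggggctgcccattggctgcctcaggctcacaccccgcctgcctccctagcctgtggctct
Ciart: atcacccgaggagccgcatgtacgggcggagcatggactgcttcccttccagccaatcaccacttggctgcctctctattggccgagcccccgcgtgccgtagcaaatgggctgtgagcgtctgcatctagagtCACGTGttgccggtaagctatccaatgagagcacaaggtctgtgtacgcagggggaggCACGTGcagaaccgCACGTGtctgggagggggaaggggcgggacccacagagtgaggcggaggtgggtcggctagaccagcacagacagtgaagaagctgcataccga
Per3: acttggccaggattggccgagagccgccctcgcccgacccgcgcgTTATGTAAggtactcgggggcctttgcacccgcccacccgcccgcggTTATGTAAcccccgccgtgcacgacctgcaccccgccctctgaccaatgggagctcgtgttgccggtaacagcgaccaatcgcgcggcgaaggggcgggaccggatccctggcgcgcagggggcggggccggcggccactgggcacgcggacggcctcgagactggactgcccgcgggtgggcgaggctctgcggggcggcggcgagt
Arntl: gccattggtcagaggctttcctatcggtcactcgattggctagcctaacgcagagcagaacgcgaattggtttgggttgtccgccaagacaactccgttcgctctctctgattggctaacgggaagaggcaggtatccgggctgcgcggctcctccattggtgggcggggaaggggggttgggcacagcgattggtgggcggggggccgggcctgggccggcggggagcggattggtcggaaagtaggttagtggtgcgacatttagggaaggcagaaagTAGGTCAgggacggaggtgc

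Clonidine, another alpha2 agonist, was given to further WT and KO hosts of the series and was measured against the same control libraries, so its values share them and are set beside those of guanabenz without a count of shared genes. Transcripts of Y-linked genes were found in 2 of 3 WT-Clonidine and 0 of 3 KO-Clonidine libraries. KO-Clonidine thus differed from KO-Guanabenz and KO-Control in this trait, and its part in the clonidine values was not tested. For Per2 the effect was 1.15 under guanabenz and 0.77 under clonidine in WT hosts, and -0.78 under guanabenz and -0.16 under clonidine in KO hosts. The difference of effects was therefore 1.93 for guanabenz and 0.93 (SE 0.23, adjusted p = 0.38) for clonidine, for which 0 genes were called and 1442 (8.94%) had an unadjusted p below 0.05. Under clonidine Per3 had 0.81 (SE 0.23), Dbp 0.83 (SE 0.38), Tef 0.41 (SE 0.17) and Arntl -0.63 (SE 0.22), with the signs seen under guanabenz. Ciart, Bhlhe40, Bhlhe41 and Nr1d1 had -0.08, -0.32, -0.43 and -0.03, opposite in sign to guanabenz. The log2 ratio of Per2 to Arntl was -0.77 ± 0.40 in WT-Clonidine and -0.78 ± 0.22 in KO-Clonidine tumours (SD, n = 3 each), between the extremes of the guanabenz and control groups. The control libraries cancel when the clonidine difference is subtracted from the guanabenz difference, and 0 of 16125 genes were called in that comparison (0%), with 1286 (7.98%) at an unadjusted p below 0.05 and a smallest adjusted p of 0.41. Per2 had 1.00 (SE 0.23, adjusted p = 0.41), Dbp 1.30 (SE 0.38), Tef 0.68 (SE 0.17) and Ciart 1.05 (SE 0.28) there. Clock, Rora, Nfil3 and Hlf had 0.01, -0.10, 0.12 and 0.14 in the same comparison. The size of receptor dependence was thus not shown to differ between the compounds at this spread.

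Outside the clock, the positive differences with the smallest p were small in size and none passed over all genes in edgeR's test. By the naming rule they were Mastl, Pyurf, Sarnp, Cdc7, Xndc1, Ccl25, Ndufa12 and Neil3, with log2 differences from 0.34 to 0.46. Of these, DESeq2 called Mastl and Ccl25. Mastl, a kinase that holds cells in mitosis, had 30.4, 30.1 and 30.3 CPM in WT-Guanabenz against 22.5, 24.2 and 22.9 CPM in WT-Control, while its KO-Guanabenz values of 28.3, 31.6 and 28.9 CPM overlapped the 30.2, 28.6 and 32.2 CPM of KO-Control. The WT groups were apart and the KO groups were not, and the difference of effects was 0.42 (SE 0.09, adjusted p = 0.53). Cdc7, a kinase that fires replication origins, had 36.7, 36.3 and 40.2 CPM in WT-Guanabenz against 28.1, 32.4 and 28.5 CPM in WT-Control, and a difference of 0.45 (SE 0.11). Neil3, a DNA glycosylase of dividing cells, had 0.41 (SE 0.11). Esp8, a key gene below the level the rule asks for, encodes a peptide of the exocrine gland-secreting family and had 0.643, 0.660 and 0.997 CPM in WT-Guanabenz against 0.883, 0.504 and 0.582 CPM in WT-Control, and 0.746, 0.632 and 0.421 CPM in KO-Guanabenz against 2.58, 3.40 and 2.23 CPM in KO-Control. KO-Control stood apart from the other 3 groups, at a difference of 2.44 (SE 0.56, adjusted p = 0.61), and the value is uncertain because the family has near-identical members.

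Of 21 G2 and M phase genes, 20 had positive differences, against 52.3% over all genes, with a median of 0.18 against 0.01 over all genes. Of these, 5 had an unadjusted p below 0.05, all higher (3.13% over all genes), and 0 were called (the median was 0.11 to 0.28 with a library left out). The median effect was 0.08 in WT and -0.07 in KO hosts. Kif23, a motor protein of the central spindle, had 73.1, 73.2 and 81.2 CPM in WT-Guanabenz against 70.5, 65.8 and 67.8 CPM in WT-Control, and 68.6, 68.8 and 75.5 CPM in KO-Guanabenz against 81.7, 78.9 and 79.5 CPM in KO-Control. It was the 1 gene of this list whose groups were apart in opposite directions in the 2 genotypes, at a difference of 0.33 (SE 0.09, adjusted p = 0.84). The proliferation marker Mki67 and the kinetochore gene Cenpf had 0.28 (SE 0.11) and 0.27 (SE 0.10), and Nusap1, a spindle protein, had 0.29 (SE 0.13). Of 20 S phase genes, 18 were positive, with a median of 0.17 (0.06 to 0.25 with a library left out) and 1 had an unadjusted p below 0.05, a share near that of all genes (5.71%).

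The negative differences with the smallest p included the clock gene Arntl, and again none passed over all genes in edgeR's test. They were Sh3gl3, Egfr, Slc15a3, Dpyd, Arntl, Plekho2, Arl5c, Arhgap25, Plat, Nbdy, C1qtnf6 and Actg1, from -1.47 to -0.34. Of these, DESeq2 called Sh3gl3, Egfr, Slc15a3, Dpyd and Arntl. Egfr, the epidermal growth factor receptor, had 38.0, 39.0 and 41.1 CPM in WT-Guanabenz against 40.8, 52.7 and 38.8 CPM in WT-Control, and 59.7, 60.0 and 47.3 CPM in KO-Guanabenz against 35.5, 39.2 and 28.6 CPM in KO-Control. The KO-Guanabenz values were the high ones while the WT groups overlapped, with effects of -0.16 in WT and 0.69 (adjusted p = 0.057) in KO hosts and a difference of -0.86 (SE 0.18, adjusted p = 0.52). Dpyd, the enzyme that degrades pyrimidine bases, had 3.27, 2.72 and 3.96 CPM in WT-Guanabenz against 5.83, 5.29 and 5.43 CPM in WT-Control, and 4.74, 4.98 and 4.74 CPM in KO-Guanabenz against 3.12, 2.81 and 2.72 CPM in KO-Control. Its groups were apart in both genotypes, low with guanabenz in WT and high with guanabenz in KO hosts, at a difference of -1.47 (SE 0.32, adjusted p = 0.52). Sh3gl3, an endophilin of membrane traffic, had -1.03 (SE 0.22), Slc15a3, a peptide and histidine transporter of lysosomes, had -0.80 (SE 0.17), and Plat, tissue plasminogen activator, had -0.64 (SE 0.17).

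Of 16 fibroblast and matrix genes, 1 had a positive difference, against 52.3% over all genes, and 15 a negative one, with a median of -0.43 (-0.50 to -0.36 with a library left out), 5 at an unadjusted p below 0.05, all lower (2.58% over all genes), and 0 called. The median effect was -0.11 in WT and 0.28 in KO hosts. The collagen gene Col1a1 had 3211, 2976 and 3247 CPM in WT-Guanabenz against 5135, 3712 and 3261 CPM in WT-Control, and 4075, 3739 and 4168 CPM in KO-Guanabenz against 3672, 2943 and 2346 CPM in KO-Control. Col3a1, another fibrillar collagen, had 7938, 7161 and 7085 CPM in WT-Guanabenz against 8257, 8685 and 7528 CPM in WT-Control, and 10480, 10060 and 8821 CPM in KO-Guanabenz against 8207, 6545 and 5810 CPM in KO-Control. For Col1a1 the groups were apart in both genotypes, narrowly so in WT, and for Col3a1 in KO hosts only. Differences of effects were -0.78 (SE 0.24) for Col1a1, -0.66 (SE 0.20) for Col3a1, -0.44 (SE 0.14) for Col1a2, -0.45 (SE 0.15) for Sparc, a collagen-binding matrix protein, and -1.14 (SE 0.47) for Lum, which encodes lumican. The summed level of the list was 28330 to 31050 CPM in WT-Guanabenz, 29650 to 35650 in WT-Control, 34500 to 38610 in KO-Guanabenz and 25750 to 32900 in KO-Control. Endothelial genes had a median of -0.14 (-0.25 to -0.01 with a library left out) and pericyte genes -0.06 (-0.14 to 0.01).

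**Figure D3:**
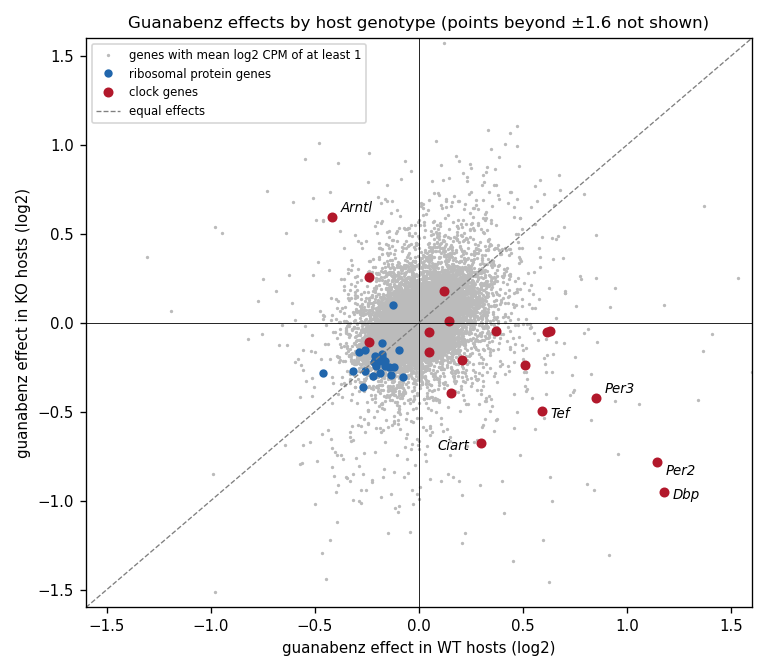
Log2 guanabenz effect in WT hosts (horizontal) against that in KO hosts (vertical) for genes with a mean log2 CPM of at least 1, with the 18 clock genes in red, cytosolic ribosomal protein genes in blue and a dashed line of equal effects. Clock genes spread to the lower right, Arntl stands at the upper left, and ribosomal protein genes lie together below 0 on both axes except for 1 gene above 0 in KO hosts.

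Across all genes the guanabenz effects of the 2 genotypes had the same sign more often than not. They use separate control libraries, and they had the same sign in 9886 of 16125 genes (61.3%), and in 7721 of 11916 (64.8%) at a mean log2 CPM of at least 1. Across genes, which are not independent replicates, Pearson's r between the effects was low, 0.0709 over all genes and 0.268 at that level. Among the 100 genes with the smallest p in WT hosts, 84 had the same sign in KO hosts, with medians of -0.26 in WT and -0.10 in KO. Among the 100 with the smallest p in KO hosts, 90 had the same sign in WT hosts, with medians of -0.12 in WT and -0.31 in KO. All 25 cytosolic ribosomal protein genes were below 0 in WT and 24 in KO hosts, with medians of -0.18 and -0.22, and the difference had a median of 0.03 with 0 members at an unadjusted p below 0.05. Oxidative phosphorylation genes had medians of -0.13 in WT and -0.16 in KO hosts and a difference of 0.00. Both effects moved with transcript length, at medians of -0.06 in WT and -0.07 in KO for the shortest 3177 genes and 0.09 in WT and 0.08 in KO for the longest 3177, while the difference stayed at 0.02 and 0.00; the part of length in the ribosomal values was not tested. kallisto divides reads between near-identical transcripts, so single ribosomal protein values are uncertain.

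Within 1 genotype, 0 genes were called for guanabenz in WT hosts (0%), where the smallest adjusted p was the 0.050 of Per2, and 1845 (11.4%) had an unadjusted p below 0.05; DESeq2 called 171. In KO hosts 2 genes fell (0.0124%), Ndufa12 and Hddc2, and 2437 (15.1%) had an unadjusted p below 0.05. Ndufa12, a subunit of respiratory complex I, had 55.5, 58.3 and 63.7 CPM in KO-Guanabenz against 81.4, 79.5 and 76.9 CPM in KO-Control, an effect of -0.42 (SE 0.06, adjusted p = 0.034). In WT hosts it had 61.1, 62.9 and 68.5 CPM in WT-Guanabenz against 69.8, 69.8 and 64.2 CPM in WT-Control, an overlap, and an effect of -0.08. Hddc2, an HD-domain nucleotidase, had an effect of -0.73 (SE 0.11, adjusted p = 0.034) in KO and -0.21 in WT hosts. Their differences of effects, 0.34 (SE 0.09) and 0.52 (SE 0.15), did not pass over all genes (adjusted p = 0.84 each), so a genotype dependence of these calls was not shown. The count of 2 in KO hosts became 85 without KO-Guanabenz 3, 24 without WT-Guanabenz 3, 11 without KO-Control 1 and 6 without WT-Control 3. It became 1 without WT-Guanabenz 1, and 0 without WT-Guanabenz 2, KO-Guanabenz 1 or 2, or KO-Control 2 or 3.

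The eIF2 pathway, another target of guanabenz, does not need Adra2a by what is known of the drug. Ppp1r15a, the inducible eIF2 phosphatase subunit, had a difference of effects of 0.01 (SE 0.28, 95% interval -0.57 to 0.59), and Ppp1r15b, the constitutive one, -0.10 (SE 0.09, interval -0.30 to 0.10). Of 16 genes for eIF2 kinases and phosphatase subunits 0 had an unadjusted p below 0.05, with a median of -0.03. Of 24 ATF4 targets, the genes switched on when eIF2 is phosphorylated, 21 had negative differences and 3 positive ones, against 52.3% positive over all genes. The list median was -0.17 (-0.25 to -0.08 with a library left out). At an unadjusted p below 0.05 there were 3, 1 higher and 2 lower, against 5.71% of all genes (3.13% higher and 2.58% lower). The higher one was Gdf15, a stress-induced cytokine, at 1.18 (SE 0.55), which had 0.607, 0.866 and 2.20 CPM in WT-Guanabenz and 0.42 as its difference without WT-Guanabenz 3. The lower ones were Pck2, the mitochondrial PEP carboxykinase, at -0.37 (SE 0.15) and Sesn2, a stress-induced inhibitor of mTORC1, at -0.32 (SE 0.15). The median effect of the list was -0.20 in WT and -0.01 in KO hosts. Within WT hosts 9 members had an unadjusted p below 0.05 (11.4% over all genes), and within KO hosts 2 (15.1%). Trib3, a pseudokinase induced by ATF4, had -0.36 (SE 0.25), the asparagine synthetase gene Asns -0.17 (SE 0.15), the glutathione-degrading Chac1 -0.44 (SE 0.25) and Atf4 itself -0.13 (SE 0.12), none of them past the threshold.

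Lymphocyte genes showed no receptor dependence that these libraries could resolve. Of 20 T cell genes, 14 had negative differences, with a median of -0.12 (-0.32 to 0.11 with a library left out) and 0 at an unadjusted p below 0.05, and the median effect was 0.20 in WT and 0.34 in KO hosts. Cd8a, a co-receptor of cytotoxic T cells, had 3.93, 10.1 and 7.87 CPM in WT-Guanabenz against 3.06, 7.06 and 6.92 CPM in WT-Control, and 12.4, 14.0 and 6.99 CPM in KO-Guanabenz against 8.36, 5.37 and 4.67 CPM in KO-Control. The groups overlapped in both genotypes and the difference was -0.50 (SE 0.51, 95% interval -1.58 to 0.59), an interval that spans 0. Cd3e had -0.37 (SE 0.43), the killing genes Gzmb and Prf1 -0.35 (SE 0.50) and -0.27 (SE 0.40), the inhibitory receptor gene Pdcd1 -0.29 (SE 0.30) and Foxp3, which defines regulatory T cells, 0.61 (SE 0.41). Cytotoxic effector genes had a median of -0.20, checkpoint genes 0.13, regulatory T cell genes 0.06, NK cell genes -0.05, B and plasma cell genes -0.15, lymphocyte-attracting chemokines -0.05 and interferon gamma response genes -0.10. With a library left out, each of these 7 medians changed sign at least once. The cytotoxic effector median ran from -0.62 (without KO-Control 2) to 0.02, and the regulatory T cell median from -0.09 to 0.31 (without KO-Guanabenz 3). Of 15 checkpoint genes 1 had an unadjusted p below 0.05 (5.71% over all genes). It was the inhibitory receptor gene Lag3 at -0.58 (SE 0.23, adjusted p = 0.87 in edgeR's test), against the sign of the list median.

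All 9 tested MHC class II presentation genes had negative differences, with a median of -0.52 (-0.73 to -0.14 with a library left out) and 0 at an unadjusted p below 0.05. Here the effects were positive in both genotypes, with medians of 0.35 in WT and 0.93 in KO hosts. H2-Ab1, a class II beta chain, had 183, 369 and 549 CPM in WT-Guanabenz against 189, 258 and 419 CPM in WT-Control, and 428, 753 and 341 CPM in KO-Guanabenz against 330, 222 and 222 CPM in KO-Control. The WT groups overlapped over nearly their whole range, whereas in KO hosts each KO-Guanabenz library lay above each KO-Control library. That gap was narrow, at 341 against 330 CPM. Over all genes the groups were apart in 19.6% within KO and in 14.6% within WT hosts. The difference was -0.63 (SE 0.52, 95% interval -1.74 to 0.48), with -0.60 (SE 0.53) for the invariant chain gene Cd74 and -0.55 (SE 0.53) for Ciita, the master activator of these genes. Macrophage and monocyte genes had a median of -0.11 (-0.24 to -0.07 with a library left out) and conventional dendritic cell genes 0.06 (-0.04 to 0.24).

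**Figure D4:**
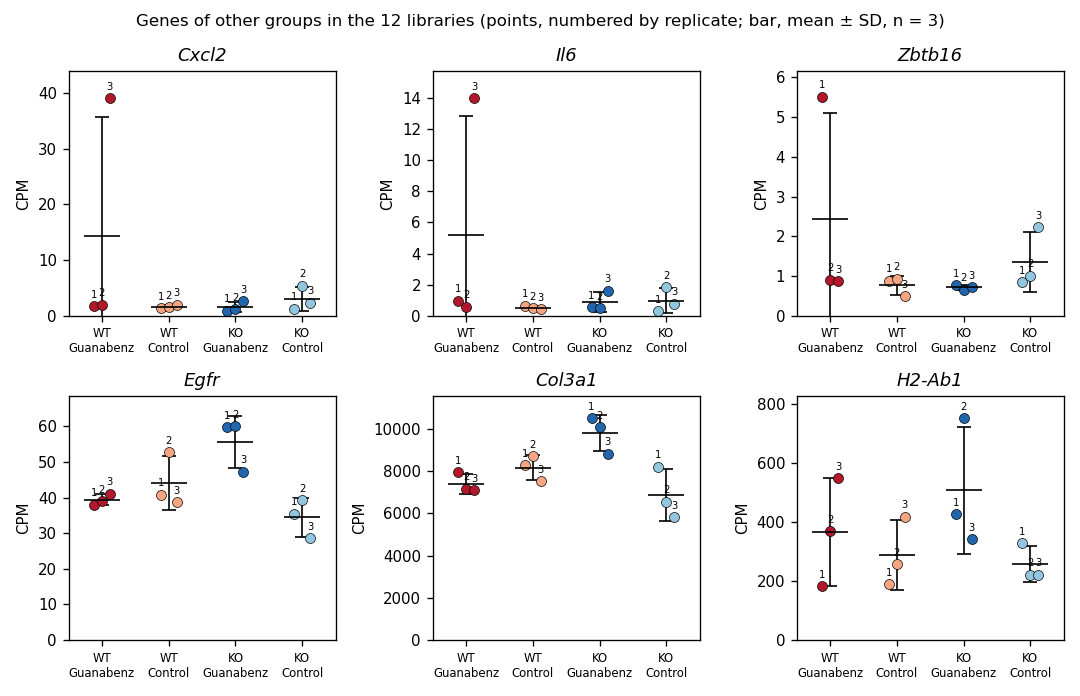
Counts per 1e6 library counts (CPM) of 6 further genes in the 12 libraries, with WT-Guanabenz, WT-Control, KO-Guanabenz and KO-Control from left to right, points numbered by replicate and bars for the mean ± SD (n = 3), cut off at 0. Cxcl2 and Il6 are high in WT-Guanabenz 3 alone and Zbtb16 in WT-Guanabenz 1 alone, while Egfr, Col3a1 and H2-Ab1 are highest as a group in KO-Guanabenz.

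Neutrophil genes had the highest median of the 38 lists followed. Their summed level was highest in WT-Guanabenz 3, at 200.8 CPM, against 122.8 CPM in KO-Control 3, the next highest. Of 11 neutrophil genes 9 had positive differences with a median of 1.45, and of 12 inflammatory cytokine genes 11 were positive with a median of 0.74. Cxcl2, a chemokine that draws neutrophils, had 1.73, 2.02 and 39.1 CPM in WT-Guanabenz against 1.41, 1.59 and 2.00 CPM in WT-Control, and 0.917, 1.15 and 2.67 CPM in KO-Guanabenz against 1.26, 5.42 and 2.34 CPM in KO-Control. The cytokine Il6 had 0.974, 0.587 and 14.0 CPM in WT-Guanabenz against 0.649, 0.493 and 0.433 CPM in WT-Control, and 0.537, 0.480 and 1.62 CPM in KO-Guanabenz against 0.289, 1.86 and 0.788 CPM in KO-Control. WT-Guanabenz 3 was far above the other 11 libraries for both genes. Their differences were 4.02 (SE 1.62) and 3.49 (SE 1.28) with it, and 1.09 and 0.73 without it. For the neutrophil gene S100a8, with a difference of 1.45 (SE 0.85), that library was not far apart. S100a8 had 5.603 CPM in WT-Guanabenz 3, near the 4.783 and 4.864 CPM of KO-Control 2 and 3. Its effect was 0.21 in WT and -1.24 in KO hosts. Without WT-Guanabenz 3 the list medians were 0.22 for neutrophil and -0.18 for inflammatory cytokine genes, and without KO-Guanabenz 3 the neutrophil median was 2.54. Skin epidermis genes were also highest in WT-Guanabenz 3, with a summed level of 363.7 CPM against 44.88 to 245.4 in the other 11 libraries (list median 0.59, and 0.07 to 1.12 with a library left out), and the part of skin in these values was not tested.

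Glucocorticoid-induced genes had 12 of 14 positive differences (52.3% over all genes), with a median of 0.23 and 4 at an unadjusted p below 0.05, all higher (3.13% over all genes). Zbtb16, a transcription factor strongly induced by glucocorticoids, had 5.51, 0.910 and 0.864 CPM in WT-Guanabenz against 0.883, 0.935 and 0.493 CPM in WT-Control, and 0.773, 0.657 and 0.728 CPM in KO-Guanabenz against 0.851, 1.01 and 2.23 CPM in KO-Control. Fkbp5, a chaperone of the glucocorticoid receptor, had 291, 148 and 128 CPM in WT-Guanabenz against 142, 137 and 142 CPM in WT-Control, and 150, 133 and 160 CPM in KO-Guanabenz against 166, 153 and 206 CPM in KO-Control. WT-Guanabenz 1 was the high library for both. The differences were 2.59 (SE 0.82) for Zbtb16 and 0.68 (SE 0.30) for Fkbp5, and 1.16 and 0.22 without that library. Tsc22d3 (GILZ), another glucocorticoid target, had a difference of 0.44 without that library, with 72.9, 63.7 and 62.6 CPM in WT-Guanabenz against 58.2, 51.0 and 51.6 CPM in WT-Control, and 51.8, 54.0 and 56.2 CPM in KO-Guanabenz against 53.9, 70.7 and 61.7 CPM in KO-Control. The WT groups were apart and the KO groups overlapped, and over all libraries its difference was 0.51 (SE 0.15, adjusted p = 0.84). The list median was -0.06 without KO-Control 2, 0.44 without KO-Control 1 and 0.43 without KO-Control 3.

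Markers of other tissues and cells around the tumour also varied between libraries, and none was called. Skeletal muscle genes had 14 of 15 positive differences, with a median of 0.55 (0.28 to 0.84 with a library left out). Both median effects were negative, at -0.32 in WT and -0.95 in KO hosts. Their summed level was 203.8 to 272.4 CPM in WT-Guanabenz, 193.3 to 378.2 in WT-Control, 80.95 to 202.7 in KO-Guanabenz and 229.3 to 314.7 in KO-Control, lowest in KO-Guanabenz 1. The muscle genes Acta1 and Ckm had differences of 0.52 (SE 0.53) and 0.68 (SE 0.54), and the skin keratin Krt14 had 1.29 (SE 1.04). Of 12 mast cell and eosinophil genes 9 had positive differences, with a median of 0.92 (0.49 to 1.22 with a library left out). At an unadjusted p below 0.05 there were 2, both higher (3.13% over all genes), and 0 were called. The mast cell protease Cpa3 had 1.83 (SE 0.85). Their summed levels overlapped, at 42.11 to 63.29 CPM in WT-Guanabenz, 43.44 to 52.13 in WT-Control, 44.27 to 56.98 in KO-Guanabenz and 49.62 to 62.96 in KO-Control. Of 11 alternatively activated macrophage genes 8 had positive differences, with a median of 0.43 (0.12 to 0.57 with a library left out). At an unadjusted p below 0.05 there were 2, both higher (3.13% over all genes), and 0 were called. The 2 were Chil3 at 1.78 (SE 0.64) and Cd163, a haemoglobin scavenger receptor, at 1.64 (SE 0.63). Chil3 had 5.37, 1.61 and 6.14 CPM in WT-Guanabenz against 1.63, 2.07 and 1.51 CPM in WT-Control, an overlap through WT-Guanabenz 2. Adipocyte genes had a median of 0.36, which was 1.45 without KO-Guanabenz 3, and erythroid genes one of 0.56, which was -0.94 without WT-Guanabenz 1 and 1.74 without KO-Guanabenz 3. The part of these tissues in the other results was not tested.

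**Figure D5:**
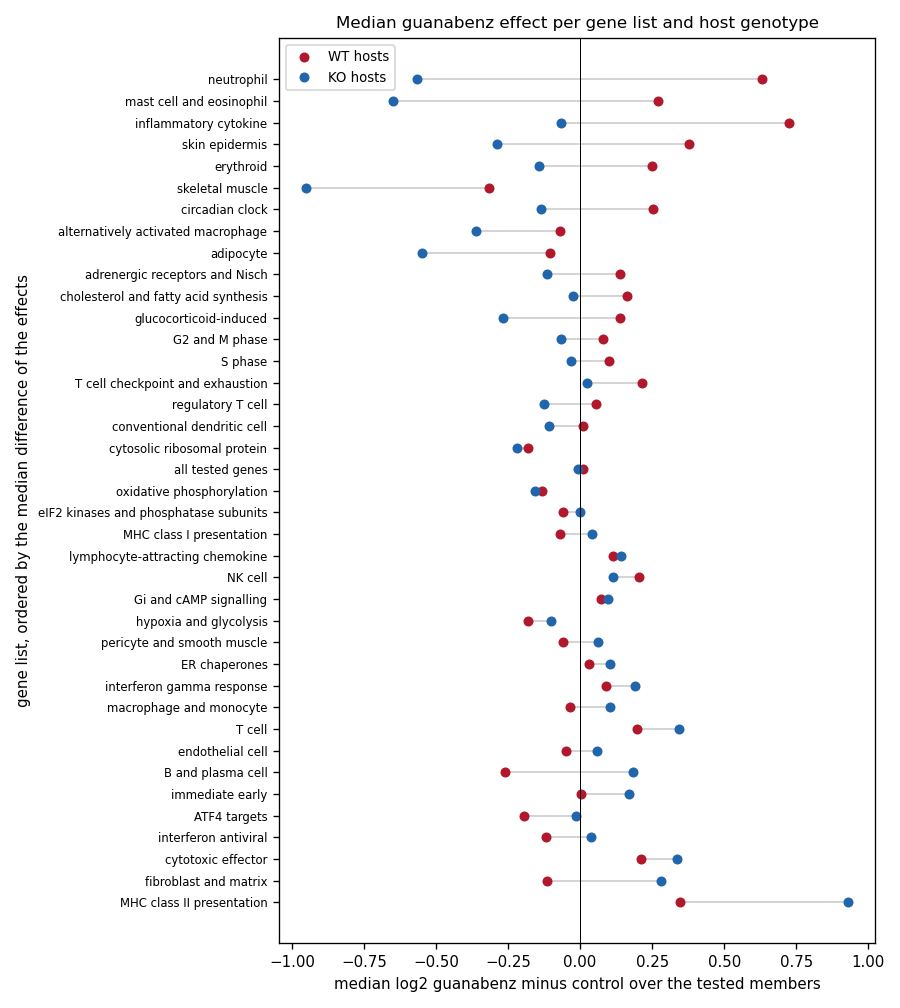
Median log2 guanabenz effect over the tested members of each gene list, in WT hosts (red) and KO hosts (blue), with a grey line for the gap and lists ordered by the median difference of effects. The Y-linked list is not drawn. Among the lists drawn the gap is widest for neutrophil, mast cell and eosinophil, inflammatory cytokine, skin epidermis, skeletal muscle and MHC class II genes, while ribosomal protein and oxidative phosphorylation genes lie below 0 in both genotypes with almost no gap.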

How the data were processed

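The authors deposited an estimated count per gene (whole numbers as deposited), made with Trim Galore 0.6.5 and kallisto 0.46.0 on GRCm38, per the submitters' processing notes. The sources used here do not say how transcripts were summed to genes or whether reads kept their strand, so overlapping antisense genes cannot be told apart, and near-identical families such as the ribosomal proteins and the H2 genes are uncertain. Of 21015 genes, 20994 matched a RefSeq symbol (GRCm38.p6), and 1829 had no counts. Totals of the 12 libraries were 54.68 to 491.1 in units of 1e6 counts.

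Genes were filtered with filterByExpr and scaled by TMM. The fit in edgeR 4.0.16 (R 4.3.3) took all 18 libraries and a mean for each of 6 groups, which gave 12 residual and 4.35 prior degrees of freedom and a biological coefficient of variation of 0.145. P-values of the two-sided quasi-likelihood test received the Benjamini-Hochberg adjustment over the 16125 genes, and an adjusted p below 0.05 was a call. CPM values use TMM-scaled totals, and 95% intervals a t distribution with 16.4 degrees of freedom. The test was tried on simulated counts for all 16125 genes, with 6 false calls.

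The genes compared, the lists and the tests were chosen with earlier results of these data known. Lists are described by counts and medians, without a set test. Named genes were called genes, filled to 12 per direction by smallest p at a mean log2 CPM of at least 1, plus 37 key genes, up to 3 members per list by smallest p, and 5 genes per genotype. Other list members, and the 4 genes of the tissue check, were chosen after values were seen. The alternatives tried included DESeq2 1.42.0, limma-voom with quality weights (limma 3.58.1), other scalings and filters, fewer libraries, a replicate block and a Y-linked term.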

Additional observations from a re-analysis of the deposited data

Results flagged for a closer look

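The guanabenz effect on Per2 differed between WT and KO hosts by the test of the difference itself. The effect was 1.15 on the log2 scale in WT hosts and -0.78 in KO hosts, a difference of 1.93 (SE 0.23, adjusted p = 0.0055 in edgeR's quasi-likelihood test), with all 3 WT-Guanabenz libraries above all 3 WT-Control libraries and all 3 KO-Guanabenz libraries below all 3 KO-Control libraries. The KO-Guanabenz libraries carry conflicting treatment labels, and the labels give no hour of collection.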

How the results depend on the processing

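Per2 kept its direction under all 22 alternatives that refitted it, with differences from 1.76 to 2.15, and an adjusted p below 0.05 in 21 of them. The exception was a fit of libraries with Y-linked transcripts alone, chosen after seeing the data, which has fewer libraries (1.95, adjusted p = 0.17, 0 calls). The 1 call for the difference of effects became 2 with total-count scaling or with voom and quality weights together, both times Per2 and Tef, and 13 with DESeq2, and ranged from 1 to 4 with a library left out. The 0 calls in WT hosts became 1 with RLE scaling, total-count scaling or no low-count filter, 6 with voom and quality weights and 171 with DESeq2 (0 to 1 with a library left out). The 2 calls in KO hosts became 15 with total-count scaling, 19 with a stricter filter, 0 with the 12 libraries alone, 11 with a Y-linked term, 24 in libraries with Y-linked transcripts, 343 with voom and quality weights and 457 with DESeq2 (0 to 85 with a library left out). The causes were not tested. Adra2a passed with DESeq2 (-1.44, adjusted p = 0.0040) and lay between -1.56 and -1.29 with a library left out. Clock genes at an unadjusted p below 0.05 numbered 9 to 12.

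Replicate numbers were not taken as pairs, since not every same-numbered pair correlated above 0.1. Same-numbered libraries of different groups correlated between -0.18 and 0.44, others between -0.45 and 0.34, and 6 of 12 libraries correlated best with their own number. Among these 12 libraries, the 3 without Y-linked transcripts all carry the number 3. With the replicate number as a block there was 1 call for the difference of effects (Per2), 0 in WT and 0 in KO hosts.

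Differences near 0 changed sign, as did that of Gzmb, which was -0.35 over all libraries and 0.0206 without WT-Control 2. Nisch was 0.0027 with total-count scaling and 0.00014 in libraries with Y-linked transcripts. In those libraries Clock was 0.0135, Bhlhe40 -0.0397, Rora -0.23 and Ppp1r15a -0.025, and with voom and quality weights Bhlhe40 was -0.0402 and Ppp1r15a -0.26. With a library left out the ranges were -0.10 to 0.0282 for Nisch, -0.18 to 0.0261 for Clock, -0.10 to 0.28 for Bhlhe40, -0.0522 to 0.28 for Rora, -0.24 to 0.19 for Ppp1r15a, -1.12 to 0.25 for Npas2 and -0.82 to 0.0206 for Gzmb. Over 89 genes and the 22 alternatives that refitted them, 1906 values kept direction and side of the threshold, 19 came to pass it, 1 ceased to and 26 changed sign. What depth limits was not tested.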
